A study of Mus musculus with 8 samples.

Results

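The genes described here are 46 genes of the cell cycle and of DNA replication, read across a time course of mouse epididymal white fat. They were chosen by name: a gene entered through the probe sets that the platform annotation ties to its symbol alone, and its brightest probe set (by the mean of 8 arrays) stood for it. Of the 46 genes, 43 had such a probe set, out of 8252 genes on the array in all, and Tyms, Ccnb1 and Bub1b had none. RNA was measured on Affymetrix U74Av2 arrays, 8 in all and 1 per group. The groups were wild type mice and mice lacking Ppara, the gene of the fatty acid receptor PPARα. In each genotype there was a control, a group taken 8 hours after 30 nmol of CL 316243, and groups given the compound at 3 nmol per hour for 3 days or 6 days. The 8 hour groups thus differ from the later ones in dosing as well as in time, and dosing and time cannot be told apart there. The compound CL 316243 activates the β3-adrenergic receptor of fat cells and with it the breakdown of stored fat. By the labels the wild type control had no drug. The labels give no age, and leave unsaid whether controls had a vehicle and how many animals gave RNA to an array. The p-values therefore measure only the spread between these arrays. With 1 array per group, that spread holds noise and any difference in response between the genotypes, and no measured spread between animals of a group.

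A cell that divides passes from G1 into S phase, when DNA is copied, and then through G2 into mitosis. D and E type cyclins with their kinases release E2F transcription factors from the retinoblastoma proteins, and E2F drives genes of the replication machinery. Genes of mitosis are switched on later in the cycle, and many are held down in resting cells by a repressor complex that binds the CHR element of their promoters. Mature fat cells do not divide, so in fat these transcripts are usually read as a sign of dividing progenitors, macrophages, endothelial cells or other stromal cells. In RNA of whole tissue, more cells of a type and more RNA per cell cannot be told apart.

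Several arrays stood apart in ways that touch the results. The knockout arrays of 3 days and 6 days were unusually alike: 52 of 6129 genes (0.848%) differed 2-fold between them, against 3.2% for the next closest pair of arrays and 5.78% for the wild type arrays of the same days. Genes of other organs were bright on 4 arrays. The summed intensity of 6 epididymis markers was 119223 in the knockout control, 16458 in the knockout 8 hour array and 9710 in the wild type 6 day array, and at most 4184 elsewhere. The sum of 5 exocrine pancreas markers was 68416 in the wild type control and 19547 in the knockout 8 hour array, and at most 3726 elsewhere. The knockout control also held testis germ cell transcripts. The summed intensity of 12 such markers was 15435 there, with 7 above the detection floor, and 811 to 2113 on the other arrays, with 1 or 2 above it. Prm1, a protamine of sperm, read 6155 and Ldhc 1825 in that array, while the meiotic markers Sycp3 and Ccna1 read 27 and 9, under the floor on every array. For Gapdh the 5' over 3' signal ratio of the array's quality probes was lowest in the knockout control, at 0.793, with 1.04 to 1.18 on the others. Array medians were all 320, and the targeted gene Ppara was brighter on every wild type array (395 to 1843) than on any knockout array (214 to 336). Adipoq, the adiponectin gene of fat cells, read 20668 to 57089, which fits the labelled tissue.

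The detection floor was an intensity of 171, the 40th percentile of all values, and lower readings were set to it before log2 was taken. Where the readings on 1 side were at the floor, the change is written "at least", since the true one may be larger. A gene was tested if at least 2 arrays lay above the floor, which left 42 of the 43 measured members and 6129 genes in all. Mcm6 did not pass, with 8 readings from -36 to 42. On all 8 arrays 25 members lay above the floor, and 9 (Prim1, Cdc25c, Aurka, Aurkb, Bub1, Kif11, Kif23, Top2a and Mki67) did so only at 3 or 6 days. Those 9 passed only through the arrays where they were high and so had to differ. Cdk1 and Kif20a were above the floor on just 1 control or 8 hour array (283 and 271, both wild type 8 hours). They too needed later arrays to pass, and they remain in the counts below that leave out the 9. Changes are log2 values with their standard error from limma, averaged over both genotypes with 2 arrays per time, and a call is an adjusted p under 0.05 over all 6129 genes. Intensities are listed in the order control, 8 hours, 3 days and 6 days, as deposited.

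The promoters of the members are described because several mitosis genes rose together between 8 hours and 3 days, as given below. RefSeq promoter windows (GRCm38.p6, 250 bases before to 50 after the start) were matched by symbol for 38 of the 46 members. Motifs were searched on both strands: the CHR element (TTTGAA or TTCGAA), the CCAAT box (CCAAT) and the E2F core (GCGGGAA or GCGCGAA). For 5 of the 6 members that rose at 3 days, the other being Ccna2, the 250 bases before the start are shown so that the motifs can be seen, in lower case with motif matches in capitals. A match on the opposite strand reads ATTGG for the CCAAT box, TTCAAA for the CHR element and TTCCCGC for the E2F core, and no match in the printed stretches overlapped one of another motif.
Mki67 (chr7:135716380-135716629, minus strand): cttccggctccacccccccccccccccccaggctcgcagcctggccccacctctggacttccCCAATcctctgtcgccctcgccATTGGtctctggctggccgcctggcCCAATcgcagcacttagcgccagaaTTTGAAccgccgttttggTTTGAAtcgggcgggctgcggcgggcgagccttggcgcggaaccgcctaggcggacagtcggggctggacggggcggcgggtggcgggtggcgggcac
Hmgb2 (chr8:57511593-57511842, plus strand): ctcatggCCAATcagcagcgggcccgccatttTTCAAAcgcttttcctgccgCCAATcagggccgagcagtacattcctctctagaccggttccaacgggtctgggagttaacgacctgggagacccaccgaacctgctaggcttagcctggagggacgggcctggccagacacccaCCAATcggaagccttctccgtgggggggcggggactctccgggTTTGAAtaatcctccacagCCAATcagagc
Kif22 (chr7:127042421-127042670, minus strand): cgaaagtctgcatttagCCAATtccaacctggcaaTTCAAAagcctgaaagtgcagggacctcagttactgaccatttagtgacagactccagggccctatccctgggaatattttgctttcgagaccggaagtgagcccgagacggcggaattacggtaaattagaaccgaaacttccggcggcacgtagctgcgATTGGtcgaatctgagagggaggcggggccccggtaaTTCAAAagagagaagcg
Cks2 (chr13:51644982-51645231, plus strand): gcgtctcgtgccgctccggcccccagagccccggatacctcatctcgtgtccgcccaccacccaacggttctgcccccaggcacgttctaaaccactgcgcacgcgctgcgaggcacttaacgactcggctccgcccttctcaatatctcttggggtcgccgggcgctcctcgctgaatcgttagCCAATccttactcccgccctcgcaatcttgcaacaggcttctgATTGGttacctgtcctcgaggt
Birc5 (chr11:117848987-117849236, plus strand): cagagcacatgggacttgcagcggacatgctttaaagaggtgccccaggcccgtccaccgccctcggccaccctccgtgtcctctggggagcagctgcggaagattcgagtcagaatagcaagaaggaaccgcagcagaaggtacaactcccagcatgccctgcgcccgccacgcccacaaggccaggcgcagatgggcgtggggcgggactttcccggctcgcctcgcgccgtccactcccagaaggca
Hmgb2 and Mki67 each had 2 CHR matches with CCAAT boxes on either side or before them, Kif22 had 2 of each, Cks2 had CCAAT boxes alone, and the printed stretch of Birc5 had no match, which says only that these letters are not in it. As an example from the replication genes, chosen after its values were seen, the same stretch of Rrm1 is shown.
Rrm1 (chr7:102441445-102441694, plus strand): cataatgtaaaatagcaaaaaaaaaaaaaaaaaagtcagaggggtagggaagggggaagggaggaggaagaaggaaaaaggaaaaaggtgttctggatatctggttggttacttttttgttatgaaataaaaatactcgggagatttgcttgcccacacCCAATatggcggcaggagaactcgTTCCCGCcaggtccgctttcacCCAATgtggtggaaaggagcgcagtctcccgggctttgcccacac
Rrm1 had an E2F core between a pair of CCAAT boxes and no CHR match.

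Over the windows of the mitosis genes (cyclins A and B and their kinase, mitotic kinases, the centromere, the spindle checkpoint and mitotic kinesins), 11 of 16 held a CHR match (68.8%), against 21.7% of 27025 genes with a window and 16.9% of the genes tested here. The same 11 also held a CCAAT box, a pair found in 9.65% of all genes and 8.54% of tested genes. The E2F core was in 1 of 16 (6.25%), that of Cdk1, against 6.86% of all genes and 12.3% of tested genes. Windows of the S phase genes (origin licensing, deoxynucleotide supply and the replication fork) had the reverse balance, with the E2F core in 9 of 14 (64.3%), a CHR match in 3 of 14 (21.4%) and a CCAAT box in 9 of 14 (64.3%, against 41.1% of all genes). A match is a string of letters and not a measured binding site.

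In both genotypes the summed intensity of the DNA replication genes and that of the mitosis genes was higher at 3 days than in the control, though few single genes passed the test: 0 of 13 S phase genes and 4 of 18 mitosis genes at 3 days. The plot of 9 members by array shows the main shapes.

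**Figure D1:**
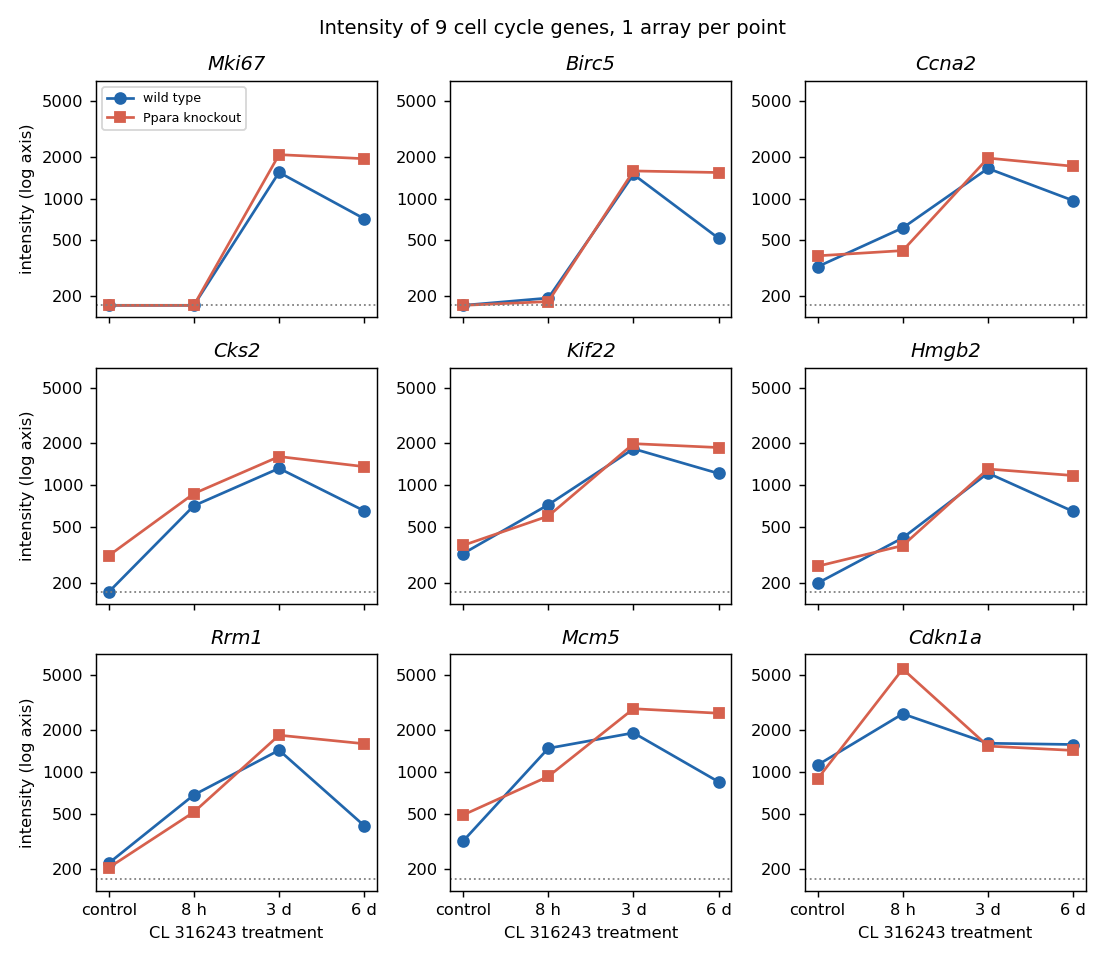
Intensity of 9 genes (log axis) against treatment in wild type (circles) and Ppara knockout fat (squares), with 1 array per point, the dotted line at the floor of 171 and lower readings drawn on it. Mki67 and Birc5 sat at or near the floor until 8 hours and at 1491 or more at 3 days, Rrm1 and Mcm5 were already brighter at 8 hours, and Cdkn1a was highest at 8 hours.

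Among the G1 regulators, Cdkn1a was the member that changed. It encodes p21, an inhibitor of cyclin-dependent kinases and a target of p53. Cdkn1a read 1122, 2618, 1609 and 1576 in wild type and 893, 5498, 1535 and 1429 in knockout fat. Both 8 hour arrays stood above all other arrays. The gene rose at 8 hours by 1.92 ± 0.36 (limma adjusted p 0.0247, higher in both genotypes), a 3.79-fold change, and its second probe set went the same way, with 2927 and 2980 at 8 hours against 1013 and 914 in the controls. At 3 days the change was 0.65 ± 0.36, which did not pass (adjusted p 0.351).

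The D type cyclins, partners of Cdk4 and Cdk6 in G1, did not pass at any time. Ccnd1 read 1076, 1585, 1648 and 1946 in wild type and 1305, 1088, 2568 and 2549 in knockout, so that both infusion arrays of each genotype lay above its control while the 8 hour arrays fell on either side. Ccnd3 read 2276, 1553, 1511 and 1908 in wild type and 1899, 1440, 1284 and 1068 in knockout, each treated array below both controls except the wild type 6 day array. Its change at 3 days was -0.58 ± 0.23 (adjusted p 0.226), the lowest of all 42 members. Ccnd2 turned direction with 1 array: its 3 day change was 0.24 ± 0.46 over all arrays and -0.46 without the knockout control, where it read 388 against 1127 in the wild type control. Ccne1, the E type cyclin of the G1 to S step, read 261, 365, 595 and 462 in wild type and 201, 372, 288 and 356 in knockout, with 0.85 ± 0.28 at 3 days (adjusted p 0.162). Cdk4 ranged from 2646 to 4731 over the arrays.

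Most S phase genes were brighter by 8 hours, though none passed the test. Of 15 listed and 13 tested, 10 had both 8 hour arrays above both controls and above the floor, an ordering found in 29.9% of all tested genes. Their median change at 8 hours was 0.95, made up of 1.27 for wild type and 0.65 for knockout fat (1 array against 1), beside -0.02 over all genes. None of the 13 passed the limma test at 8 hours, with adjusted p from 0.0832 upward. An unadjusted p under 0.05 was found for 5 of the 13, beside 1985 of all 6129 genes.

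The helicase that unwinds DNA at replication origins is built of the Mcm2 to Mcm7 subunits. Mcm5 read 319, 1480, 1911 and 849 in wild type and 491, 929, 2849 and 2644 in knockout. Mcm2 read 171, 613, 665 and 320 in wild type and 266, 449, 902 and 824 in knockout. For both genes the 8 hour and 3 day arrays lay above either control, and in wild type the 6 day array was below its 8 hour level. Mcm5 changed by 1.57 ± 0.50 at 8 hours (limma adjusted p 0.0888) and 2.56 ± 0.50 at 3 days (adjusted p 0.0754), values that did not pass. A second probe set of Mcm5 did not follow the brightest, at 212, 50, 143 and 458 in wild type and 30, 169, 201 and 126 in knockout. Mcm7 differed from its partners at 8 hours, at 678 and 479 against 705 and 677 in the controls, and read 1308 and 1724 at 3 days. Over the 6 licensing genes tested (Mcm2, Mcm3, Mcm4, Mcm5, Mcm7 and Cdc6, which loads the helicase), the 3 day change ran from 1.12 to 2.56.

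Genes of deoxynucleotide supply had the largest 3 day values among the S phase members. Rrm1 and Rrm2 encode the subunits of ribonucleotide reductase, and Tk1 encodes the cytosolic thymidine kinase. Rrm1 read 221, 684, 1434 and 411 in wild type and 205, 515, 1838 and 1596 in knockout. Rrm2 read 86, 275, 1022 and 328 in wild type and 147, 269, 1339 and 1243 in knockout. Tk1 read 253, 661, 2231 and 793 in wild type and 294, 285, 3042 and 2326 in knockout. All 3 genes were brightest at 3 days in each genotype, and Tk1 was above its control at 8 hours in wild type alone. A dimmer second set of Tk1 read 113, 191, 262 and 274 in wild type and was under the floor throughout in knockout, and that of Rrm1 was under it on all 8 arrays. Their 3 day changes were 2.93 ± 0.55, at least 2.77 ± 0.49 and 3.26 ± 0.59, and none passed (limma adjusted p 0.0718, 0.0648 and 0.0696).

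At the replication fork, Pcna, the sliding clamp of DNA polymerase, was bright throughout. It read 2095, 3946, 5656 and 2242 in wild type and 1471, 4704, 8944 and 8690 in knockout. In wild type it was back near its control level at 6 days, while in knockout the 6 day reading stayed by the 3 day one. The change at 3 days was 2.02 ± 0.54 (limma adjusted p 0.124). Lig1, the ligase that joins Okazaki fragments, read 151, 322, 489 and 110 in wild type and 168, 248, 659 and 582 in knockout, under the floor in both controls. Fen1, the flap nuclease, had a 3 day change of 1.69 ± 0.37 (adjusted p 0.088). Prim1, the primase, read at most 219.

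Of the 20 genes of mitosis listed and 18 tested, 4 rose at 3 days and 1 at 8 hours. Both 8 hour arrays lay above both controls and the floor for 5 of the 18, a share near the 29.9% of all tested genes. The median change at 8 hours was 0.00, but 6 of the 18 lay under the floor on all control and 8 hour arrays and count as 0.00 by construction. Over the other 12, it was 0.23, with 0.69 in wild type and 0.00 in knockout. That knockout value is again set by the floor. Cdk1 (39 and 151) and Kif20a (43 and 168) lay under it on the knockout control and 8 hour arrays. The median at 3 days was 2.16 for the 18 and 2.55 for those 12, beside 1.85 for the 13 S phase genes and -0.03 over all tested genes.

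Cks2, a small protein that binds cyclin-dependent kinases, was the mitosis gene that rose at 8 hours. It read 125, 713, 1324 and 655 in wild type and 312, 872, 1609 and 1362 in knockout. Every treated array stood above both controls. The change was at least 1.77 ± 0.26 at 8 hours (limma adjusted p 0.0137), at least 2.66 ± 0.26 at 3 days (adjusted p 0.0299) and at least 2.03 ± 0.26 at 6 days (adjusted p 0.0385), higher in both genotypes each time. With Cdkn1a, 2 of 43 measured members rose at 8 hours and 0 fell, where 6.49% of all tested genes rose and 8.29% fell, so the count of calls at 8 hours was near that of genes in general. Unadjusted p was under 0.05 at 8 hours for 11 members, beside 1985 of all 6129 genes. Without a control or an 8 hour array in turn, neither of these calls held (0 members), without either 3 day array 1 member passed, and without either 6 day array 9 did.

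At 3 days 6 of the 43 measured members rose and 0 fell, against 0.441% and 0.702% of all tested genes. They were Ccna2, Cks2, Birc5, Kif22, Hmgb2 and Mki67. Ccna2, cyclin A of S phase and G2, read 324, 616, 1648 and 968 in wild type and 388, 423, 1956 and 1709 in knockout. Both 3 day arrays exceeded all control and 8 hour arrays, and the gene rose by 2.34 ± 0.33 (limma adjusted p 0.0379), which is 5.06-fold. Birc5, survivin of the chromosomal passenger complex, read 95, 193, 1491 and 518 in wild type and 145, 182, 1581 and 1540 in knockout. It was only just above the floor at 8 hours and rose at 3 days by at least 3.17 ± 0.43 (adjusted p 0.0371).

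Kif22 encodes a kinesin that pushes chromosome arms toward the middle of the spindle. It read 323, 725, 1830 and 1216 in wild type and 370, 601, 1992 and 1868 in knockout. All treated arrays lay above both controls. The gene rose by 2.47 ± 0.25 at 3 days (limma adjusted p 0.0299) and by 2.12 ± 0.25 at 6 days (adjusted p 0.0364), while 0.93 ± 0.25 at 8 hours did not pass (adjusted p 0.0566).

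Hmgb2, a chromatin protein that bends DNA, read 198, 419, 1224 and 649 in wild type and 262, 369, 1309 and 1176 in knockout. It was higher on every treated array than on either control and rose at 3 days by 2.47 ± 0.28 (limma adjusted p 0.0299), whereas 1.94 ± 0.28 at 6 days had an adjusted p of 0.0504. Mki67, which encodes the Ki-67 antigen used to count cycling cells, read 36, 167, 1544 and 717 in wild type and 42, 104, 2070 and 1936 in knockout. All 4 control and 8 hour readings were under the floor and all 4 infusion readings were above it. Mki67 rose by at least 3.39 ± 0.38 at 3 days (adjusted p 0.0299) and at least 2.78 ± 0.38 at 6 days (adjusted p 0.0420), at least 10.5-fold and 6.89-fold. Since Mki67 passed the filter only through its late arrays, it had to differ, and without such genes 5 members were called at 3 days and 2 at 6 days. The sizes for Mki67 depend on the floor and the probe set. Averaging in its second, dimmer probe set (112, 139, 286 and 272 in wild type, 191, 116, 121 and 156 in knockout) gave 1.84 at 3 days and 1.52 at 6 days, and a lower floor gave 5.16 and 4.56.

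The 3 day calls rested on the whole set of arrays. Without either 6 day array 28 members passed at 3 days, and without any 1 of the control, 8 hour or 3 day arrays 0 did. The log2 changes of the 6 called genes stayed between 2.30 and 3.70 over all of these, from 2.38 to 3.08 without the knockout control and from 2.31 to 3.41 without the knockout 3 day array. At 6 days 3 members rose (Mki67, Kif22 and Cks2) and 0 fell, against 0.228% and 0.604% of tested genes. That count became 20 when the wild type 6 day array was left out and 0 when any other array was.

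**Figure D2:**
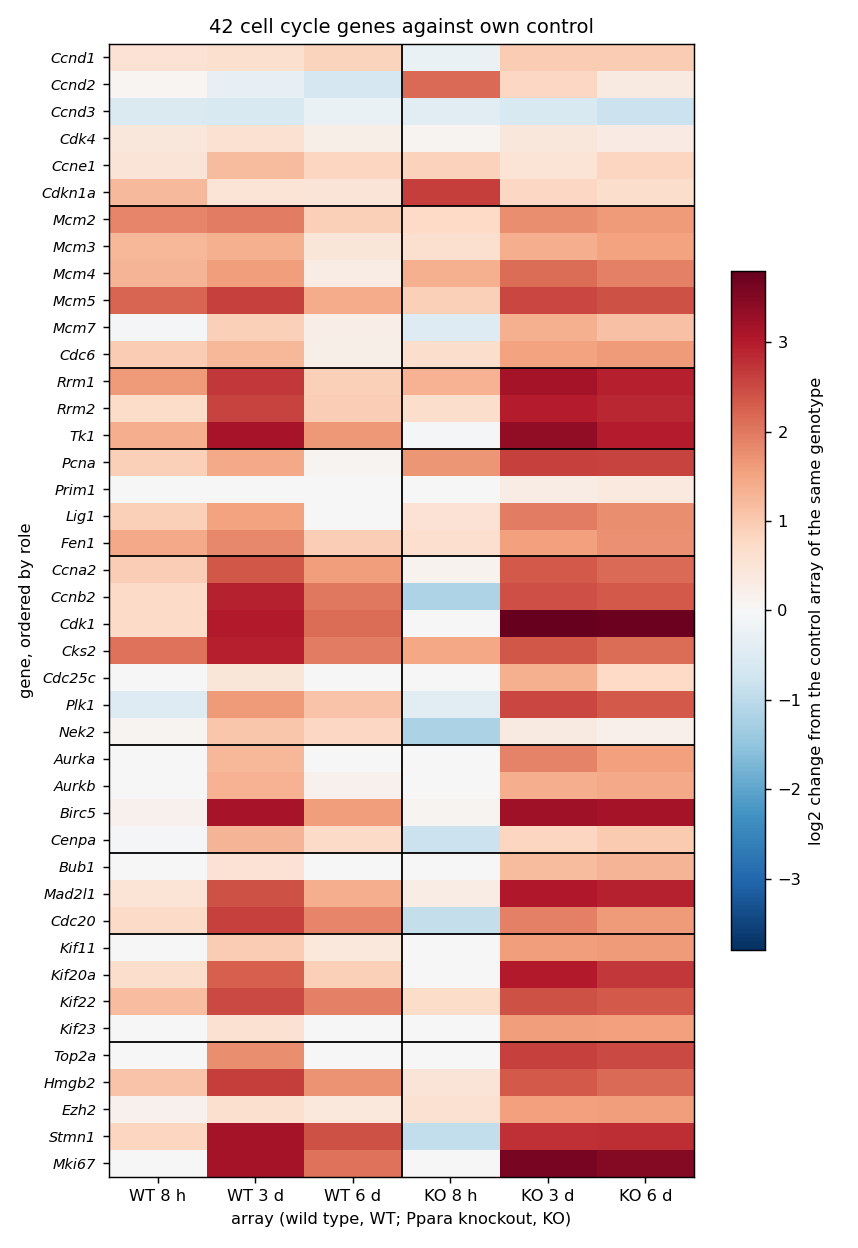
Log2 change of 42 genes from the control array of the same genotype, with 1 column per treated array and genes ordered by role between black lines. Red is higher and blue lower, and the 3 day columns of both genotypes and the knockout 6 day column are red for most genes from Mcm2 downward, more so than the wild type 6 day column.

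Counted on single arrays with no test, at least 2-fold above their own control were 11 of the 42 tested members at 8 hours in wild type, where 8.11% of tested genes were, and 6 in knockout, where 11.2% were. Ccnb2 and Nek2 were at least 2-fold below the control in the knockout 8 hour array, where 11% of genes were. At 3 days the count was 30 in wild type, against 5.6% of genes, and 33 in knockout, against 8.66%. At 6 days it was 14 in wild type, against 3.56%, and 33 in knockout, against 9.48%. Of the 42 members, 9 were above the floor only at 3 or 6 days and passed the filter through those arrays alone. Leaving these out, the counts among the other 33 were 26 in wild type and 25 in knockout at 3 days, and 13 and 26 at 6 days. Cdk1 and Kif20a, which also needed 3 or 6 day arrays to pass, are among the 33.

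The most calls came from a comparison that did not subtract the control arrays. Between 8 hours and 3 days, a comparison added after the data were seen, 12 of 43 measured members rose and 0 fell, against 1.99% and 2.41% of all tested genes. The dosing differed between these arrays too (30 nmol against 3 nmol per hour), so time and dosing cannot be told apart in it. Of the 12, 9 were mitosis genes (Ccna2, Ccnb2, Cdk1, Plk1, Birc5, Cenpa, Mad2l1, Cdc20 and Kif22) and the other 3 were Hmgb2, Stmn1 and Mki67. No S phase gene passed (adjusted p 0.0714 to 0.685), although all 13 had both 3 day arrays above both 8 hour arrays, as did all 18 mitosis genes and 26.8% of tested genes. For 1 of the 13 and 6 of the 18 the filter largely fixed that order, since they were above the floor only at 3 or 6 days, and without such members 12 genes of each set had it. Mki67 was the gene of that kind among the 12 called, which leaves 11. Cdk1, among the 11, and Kif20a were above the floor on just 1 control or 8 hour array (283 and 271, wild type 8 hours). Both also needed later arrays to pass the filter, and both remain among the 12 mitosis genes. The median change was 1.56 for the mitosis genes and 0.72 for the S phase genes, beside 0.01 over all genes, and 2.32 against 0.86 over the 12 members of each that were above the floor on some control or 8 hour array. The difference between both sets was not tested.

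**Figure D3:**
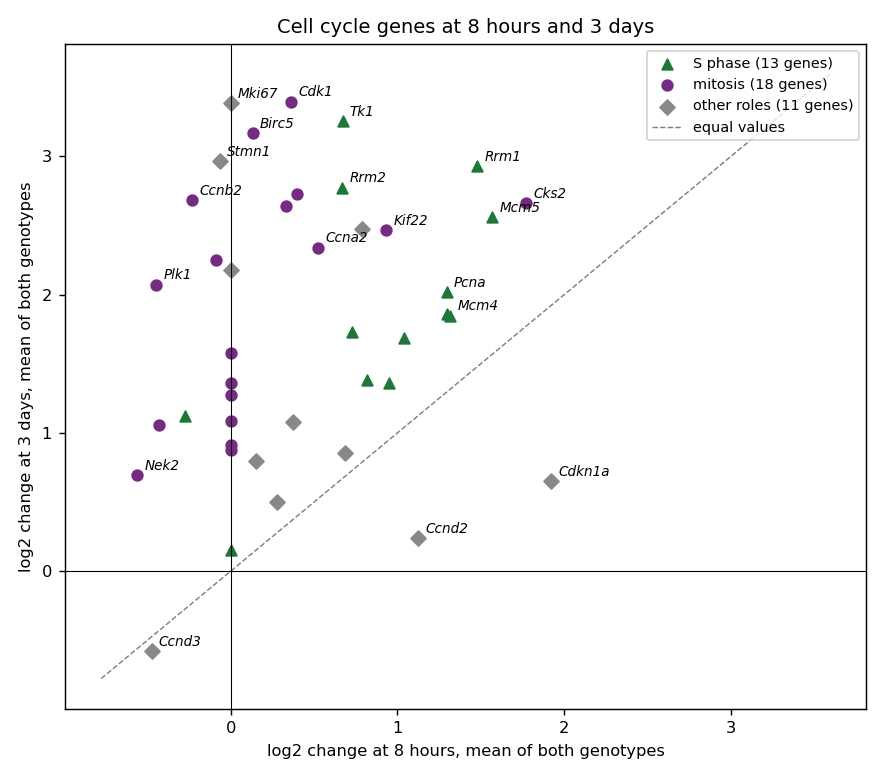
Log2 change at 3 days against log2 change at 8 hours for 42 genes, each averaged over both genotypes, with triangles for S phase, circles for mitosis and diamonds for other roles. The dashed line marks equal values. Of the 18 mitosis genes 6 stand at 0 on the horizontal axis because of the floor, most S phase genes lie to the right of 0 (Mcm7 and Prim1 do not), and Cdkn1a, Ccnd2 and Ccnd3 lie below the line.

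Among the mitotic kinase genes, Cdk1, the kinase that drives entry into mitosis, read -37, 283, 1369 and 746 in wild type and 39, 151, 2363 and 2260 in knockout. Its cyclin Ccnb2 read 480, 788, 3641 and 1922 in wild type and 908, 402, 4951 and 4542 in knockout. Both genes were brightest at 3 days, and Ccnb2 in knockout fat was lower at 8 hours than in its control. From 8 hours to 3 days Cdk1 rose by at least 3.03 ± 0.53 (limma adjusted p 0.0391) and Ccnb2 by 2.92 ± 0.52 (adjusted p 0.0398). Against the controls at 3 days they missed the threshold (adjusted p 0.0527 and 0.0737).

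Plk1, the polo kinase of spindle assembly, read 422, 303, 1286 and 896 in wild type and 252, 189, 1463 and 1257 in knockout. It was lower at 8 hours than in the control of either genotype and rose from 8 hours to 3 days by 2.52 ± 0.35 (limma adjusted p 0.0258). Its probe sets disagreed. The names of all 3 carry a letter that marks possibly shared sequence. Of the dimmer pair, one read 697, 416, 514 and 446 in wild type and 712, 296, 309 and 348 in knockout, below the controls at 3 days, and the other went the way of the brightest (105, 93, 439 and 357 in wild type and 64, 56, 958 and 767 in knockout). The mean over its probe sets gave 1.54 for the same comparison (adjusted p 0.0334). Nek2, a centrosomal kinase, ranged from 218 to 666, and Cdc25c, the phosphatase that activates Cdk1, passed the floor only at 3 and 6 days, up to 435.

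At the centromere and the spindle checkpoint, 3 genes rose from 8 hours to 3 days beside Birc5. Cenpa, the histone H3 variant of centromeres, read 294, 285, 719 and 491 in wild type and 356, 202, 631 and 715 in knockout, and rose by 1.49 ± 0.28 (limma adjusted p 0.0479). Mad2l1, which holds back anaphase until chromosomes are attached, read 263, 377, 1397 and 684 in wild type and 263, 319, 2172 and 1981 in knockout, and rose by 2.33 ± 0.43 (adjusted p 0.0458). Cdc20, which it blocks, read 328, 542, 1975 and 1189 in wild type and 560, 299, 2101 and 1722 in knockout, and rose by 2.34 ± 0.40 (adjusted p 0.0361). For all 3 genes both 3 day arrays lay above every control and 8 hour array. Aurka and Aurkb, the Aurora kinases, and Bub1, a checkpoint kinase, stayed under the floor until 3 days, when they read 413 and 633, 429 and 448, and 248 and 397 in wild type and knockout.

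The other kinesins and chromatin genes had the same order of arrays. Stmn1, which destabilises microtubules and is abundant in dividing cells, read 468, 819, 4219 and 2528 in wild type and 998, 522, 6763 and 7039 in knockout. It rose by 3.03 ± 0.49 from 8 hours to 3 days (limma adjusted p 0.0349), with both 3 day arrays above every control and 8 hour array. Top2a, the topoisomerase that untangles chromosomes, read -37, 66, 580 and 155 in wild type and 2, 50, 1034 and 968 in knockout. It passed the floor only on both 3 day arrays and the knockout 6 day array. Kif20a, of cytokinesis, read 141, 271, 830 and 321 in wild type and 43, 168, 1368 and 1103 in knockout, and Kif11, which separates spindle poles, read 331 and 515 at 3 days and under the floor before. Ezh2, the Polycomb methyltransferase, ran from 258 to 777 with 1.08 ± 0.31 at 3 days (adjusted p 0.138).

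The 12 calls between 8 hours and 3 days also depended on which arrays set the spread. Without either 6 day array 21 members passed, and without any other array, or without both controls, 0 did, while the log2 changes of the 12 genes stayed between 1.14 and 3.90 throughout. The knockout 8 hour array lay below its own control for 10 members, among them Ccnb2, Cdc20, Stmn1, Cenpa and Plk1 of the 12, and without it the 12 changes ran from 1.14 to 3.08.

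From 3 days to 6 days most members were lower again in wild type fat and near their 3 day level in knockout fat, 1 array against 1 in each. In wild type fat 40 of the 42 tested members were lower at 6 days than at 3 days, the exceptions being Ccnd1 and Ccnd3, where 45.3% of all tested genes were lower. In knockout fat 31 were lower, where 46.4% of all genes were. Of the 43 measured members, 17 were at least 2-fold lower at 6 days in wild type (3.75% of tested genes) and 0 in knockout (0.408%), each 1 array against 1. Without the 9 members that were above the floor only at 3 or 6 days, 13 of 33 were so in wild type. For S phase genes the median late change was -1.17 (wild type) and -0.11 (knockout), and -0.75 and -0.13 for mitosis genes, with 0.00 over all genes in both. The small late change in knockout stands beside the likeness of both knockout infusion arrays over all genes, given above, and the part of that likeness in this result was not tested.

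**Figure D4:**
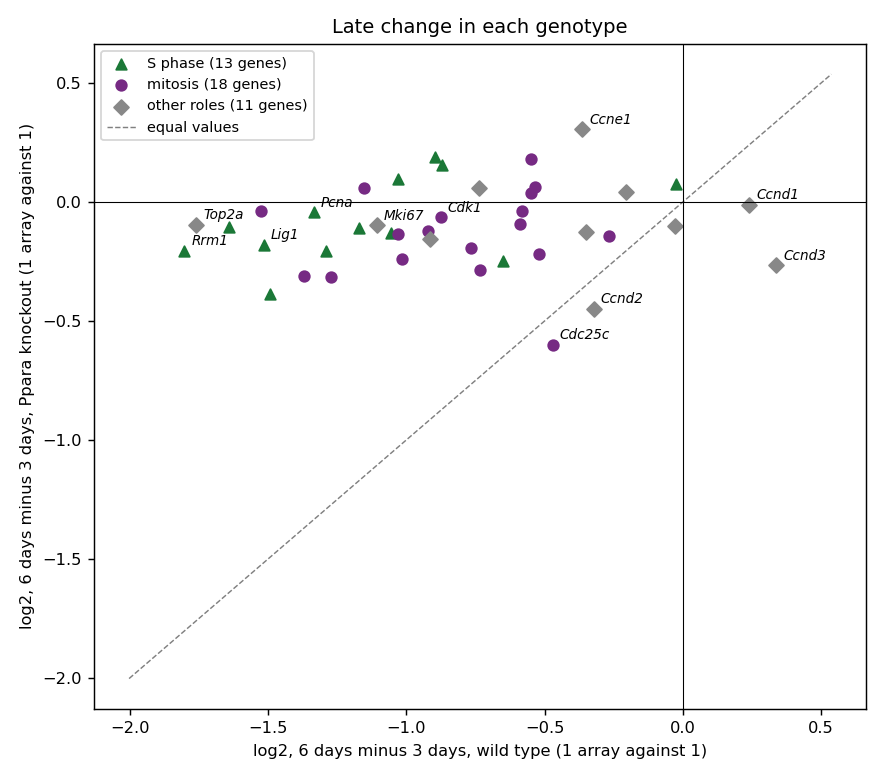
Log2 difference of 6 days from 3 days in knockout fat (vertical) against wild type fat (horizontal) for 42 genes, 1 array against 1 on each axis, with symbols by role and a dashed line of equal values. Most genes lie between -1.8 and -0.27 in wild type and within -0.6 and 0.31 in knockout, above the line.

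The largest wild type differences between 6 and 3 days were in Rrm1 (-1.80), Top2a (at least -1.76), Rrm2 (-1.64), Birc5 (-1.52) and Lig1 (at least -1.52). The knockout values of the same genes were -0.20, -0.10, -0.11, -0.04 and -0.18. By 6 days 38 members were brighter in knockout than in wild type, where 44% of tested genes were, and 25 were at least 2-fold brighter, where 9.33% were. Without those 9 members the counts were 29 and 18 of 33. Rrm1 then read 1596 against 411, Pcna 8690 against 2242, Lig1 582 against 110 and Mki67 1936 against 717. Ccnd2, Ccnd3, Ccne1 and Cdkn1a were the 4 that were not brighter. At 3 days the knockout excess was smaller, with a median of 0.41 against 1.27 at 6 days, and in the controls the median was 0.00. The latter is set by the floor, under which 15 members lay in both controls; over the 25 members above it in both, the control median was 0.20.

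No test of these late and genotype differences called a member. For 6 days against 3 days limma called 0 of all 6129 genes (0%), with 109 at an unadjusted p under 0.05, of which 0 were members. Knockout against wild type over 4 arrays each called 0 genes (0%), with 941 at an unadjusted p under 0.05, of which 2 were members. The interaction of genotype with drug called 0 genes (0%), with 623 under an unadjusted 0.05, of which 0 were members. With 1 array per group, a difference between genotypes at 6 days alone cannot be tested. The interaction averages over 8 hours, 3 days and 6 days, so a difference at 1 time is diluted in it.

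Macrophage markers moved with the members in part. The 10 macrophage markers, of which 8 to 10 were above the floor on each array, summed to 18387, 58648, 78496 and 27763 in wild type and 21493, 62831, 107303 and 140886 in knockout. Adgre1, which encodes the macrophage antigen F4/80, read 388, 851, 4336 and 1019 in wild type and 327, 1261, 6392 and 10264 in knockout. The sums for the 13 S phase genes were 5360, 11926, 18563 and 7783 in wild type and 5269, 10613, 26155 and 24444 in knockout, and for the 18 mitosis genes 3310, 5843, 20090 and 10983 and 4483, 4297, 25766 and 23340. All 3 sums were highest at 3 days in wild type and lower at 6 days. In knockout the macrophage sum went on upward at 6 days and the cell cycle sums did not. At 8 hours the macrophage sum was above control in both genotypes, while the mitosis sum was so in wild type alone.

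**Figure D5:**
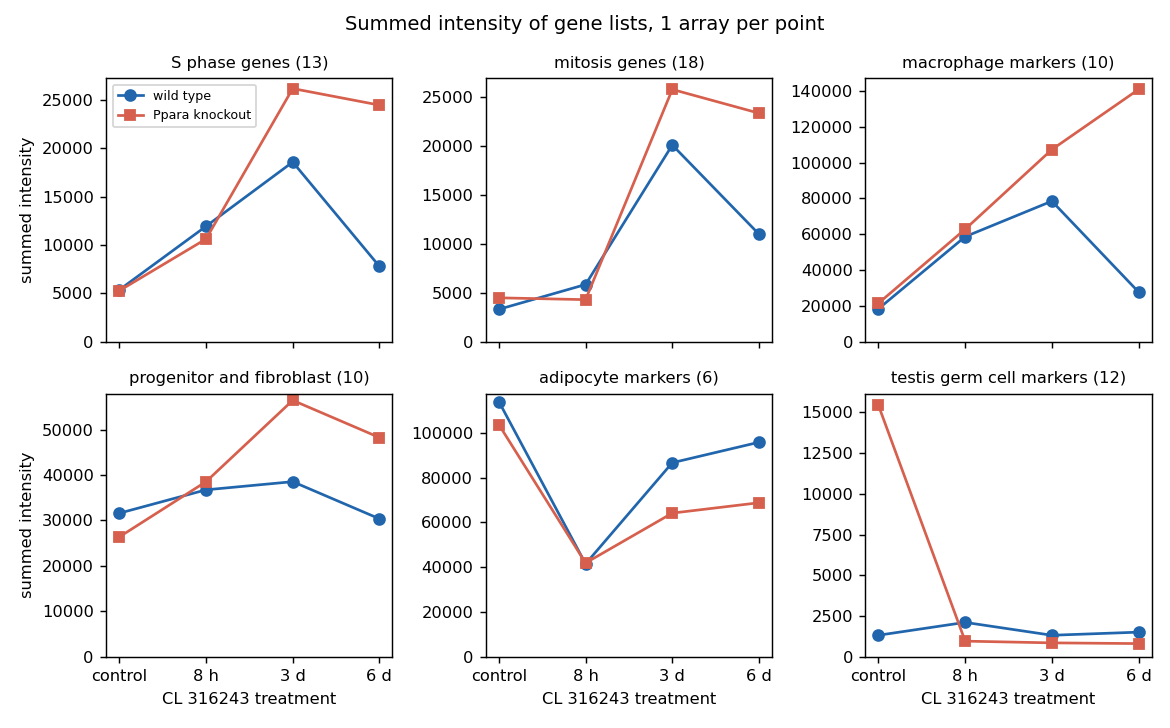
Summed intensity of S phase and mitosis genes and of 4 marker lists against treatment, with 1 array per point, circles for wild type and squares for knockout. The S phase, mitosis and macrophage sums were higher in knockout than in wild type at 6 days, and the germ cell sum stood out on the knockout control alone.

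Progenitor and fibroblast markers, 8 to 10 of 10 above the floor, summed to 31595, 36742, 38534 and 30368 in wild type and 26377, 38532, 56434 and 48249 in knockout. The collagen genes Col1a1 and Col3a1 made up most of each sum, and the other markers were mixed. At 3 days against control, Pdgfra read 1740 against 1966 in wild type and 3074 against 1921 in knockout. Cd34 read 934 against 1860 and 1316 against 1314, and Cd44 352 against 33 and 682 against 80. The adipocyte sum, over 6 markers, was 113882, 41479, 86609 and 95755 in wild type and 103600, 41863, 64127 and 68748 in knockout. Neutrophil and myeloid precursor markers were high at 8 hours, at 32806 and 42994, of which S100a8, S100a9 and Lcn2 made up most. They were also at 17152 in the knockout control, where Lcn2 alone read 16051, against 537 in the wild type control. Of the precursor genes, Ngp, Mpo and Ctsg were under the floor on every array, Prtn3 was above it on 3 arrays (up to 237) and Elane on all 8 (199 to 424). T, B and NK cell markers summed to 1084 to 1976 on all arrays, and Cd3e, Cd3d and Cd3g were under the floor throughout, while Cd4 (193 to 476), Cd79a (201 to 297) and Ms4a1 (425 to 992) were above it on every array. Endothelial markers, 7 or 8 of 8 above the floor, summed to 11988 to 23799 and were lower at 3 days than at 8 hours in both genotypes. The part of the macrophage and progenitor markers in the cell cycle results was not tested. Nor was the part of the germ cell and epididymis transcripts in the knockout control. There 16 members lay above the wild type control, the most Stmn1 (1.09), Ccnb2 (0.92), Cks2 (at least 0.87), Cdc20 (0.77) and Fen1 (0.73), and 10 lay below it, the most Ccnd2 (-1.54) and Plk1 (-0.74).

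Further genes of the pathway, listed by name, were read beside the members. Of 47 other DNA replication genes, 39 were measured and 31 tested. Usp1, a deubiquitinase that acts on PCNA, was the call at 8 hours, with a rise of 0.88 ± 0.19 (limma adjusted p 0.034). At that time 6.49% of all tested genes rose. None of the 31 passed at 3 days, 6 days or between 8 hours and 3 days. The median 3 day change was 0.60. The largest were Uhrf1, which copies DNA methylation to new strands, at least 2.69 ± 0.50 (adjusted p 0.071), and the licensing factor Cdt1 at 2.04 ± 0.43 (adjusted p 0.0831). Cdt1 read 325, 1028, 1256 and 657 in wild type and 379, 821, 1670 and 1949 in knockout, above the controls at every treated time.

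Of 54 other G2 and mitosis genes, 42 were measured and 37 tested, with a median of 0.03 at 8 hours and 1.06 at 3 days. Some, such as Ttk and Kif4, were under the floor on all control and 8 hour arrays and so count as 0.00 at 8 hours. Tubb5, a beta tubulin that is also made by resting cells, was the call at 8 hours (1.63 ± 0.23, limma adjusted p 0.0129), when 6.49% of all tested genes rose. At 3 days Pttg1, the securin that guards chromatid cohesion, rose by 1.88 ± 0.25 (adjusted p 0.0368) and Nusap1, a spindle protein, by at least 2.68 ± 0.40 (adjusted p 0.0462). From 8 hours to 3 days 9 rose and 0 fell, against 1.99% and 2.41% of tested genes: Ccnf, Pttg1, Kif2c, Prc1, Anln, Nusap1, Ckap2, Cdca8 and Foxm1. Of these, Ckap2 was above the floor only at 3 and 6 days. It passed the filter only through those arrays and so had to differ. Nusap1 was above the floor on just 1 control or 8 hour array (184, knockout control). It also needed later arrays to pass, which bears on both of its calls. The 9 changes ran from 1.12 for Ccnf to at least 2.74 for Nusap1. Foxm1, a transcription factor of G2 and mitosis genes, read 528, 519, 1110 and 808 in wild type and 407, 433, 1235 and 1035 in knockout, level with the controls at 8 hours and above them at 3 days, and rose between those times by 1.30 ± 0.24 (adjusted p 0.0442).

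Calls among upstream regulators were mainly at 8 hours, as were those of all tested genes, of which 6.49% rose and 8.29% fell then. Of 20 RB, E2F and G1 regulators, 14 were measured and 11 tested. Myc, a transcription factor of growth, rose at 8 hours (at least 1.66 ± 0.33, limma adjusted p 0.0275) and Rbl2, the retinoblastoma relative p130 of resting cells, fell (-1.23 ± 0.19, adjusted p 0.0146). Rbl2 read 550, 231, 374 and 327 in wild type and 506, 218, 391 and 401 in knockout, below the controls on every treated array. Neither passed at 3 or 6 days, and Tfdp1, the partner of E2F, had the largest 3 day change of the list at 0.94 ± 0.19 (adjusted p 0.0831).

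Of 21 genes of CDK inhibitors, p53 targets and growth arrest, 19 were measured and 17 tested, with 2 higher and 3 lower at 8 hours, beside the same 6.49% and 8.29% of tested genes. Gadd45g (1.12 ± 0.23, limma adjusted p 0.0292), a stress gene, and Tob1 (1.14 ± 0.25, adjusted p 0.0358), which curbs proliferation, rose. Those that fell were Cdkn2c, which encodes p18 (-2.38 ± 0.20, adjusted p 0.00386), Cdkn1c, which encodes p57 (-1.76 ± 0.17, adjusted p 0.00482), and Gas1 (-0.92 ± 0.19, adjusted p 0.0298). Cdkn1c read 2029, 638, 886 and 635 in wild type and 1857, 513, 756 and 579 in knockout. It was the gene of this list that also fell at 3 days (-1.25 ± 0.17, adjusted p 0.0371) and at 6 days (-1.68 ± 0.17, adjusted p 0.0325). Cdkn2c read 9894, 2067, 7193 and 8455 in wild type and 7989, 1421, 4420 and 4748 in knockout. It was thus lowest at 8 hours and rose again from 8 hours to 3 days by 1.72 ± 0.20 (adjusted p 0.0178). The adipocyte marker sum was lowest at 8 hours as well, and its part in these falls was not tested.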

How the data were processed

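RNA of mouse epididymal white fat was measured on 8 Affymetrix U74Av2 arrays, 1 per group, grouped by the sample titles. The deposited values are whole-number intensities, not logged, 11.9% of them below 0. The normalization the authors used is not given in the sources used here, but the arrays already share a scale: from the 1st to the 99th percentile their values nearly coincide. All value columns were used (0 left over). The number of arrays limits the precision.

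Of 12488 probe sets, 66 were array controls, 10855 carried 1 gene symbol in the platform annotation, 396 more than 1 and 1237 none there. For 10839 the symbol was updated by gene number through the RefSeq table of GRCm38.p6. Intensities under 171, the 40th percentile, were set to 171 and log2 was taken. Genes above it on at least 2 arrays were tested (6129), by their brightest probe set. Among members, 14 had several probe sets. Those of Plk1 disagreed, and dimmer sets of Mcm5, Rrm1, Tk1, Lig1, Bub1, Stmn1 and Mki67, mostly under the floor, did not follow the brightest. Letters f, g or s in probe set names mark possible shared sequence for Plk1, Kif20a, Mcm3 and Cdc25c. Kif22 and Hmgb2, both called at 3 days, rest on 1 set each. Its letter r marks probes picked with some selection rules dropped, which may share sequence too.

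Limma 3.58.1 in R 4.3.3 fitted genotype plus time over all 8 arrays, with 3 residual degrees of freedom, so the genotypes stand in for replicates of a time and the spread holds any difference in response. Adjusted p-values are Benjamini-Hochberg values over all genes tested, and the threshold was 0.05. A further fit added an interaction of genotype with drug. Single arrays were compared by 2-fold counts without a test. The members and all gene lists were chosen with earlier results of these data known. Every member could be named. Intensities on all arrays are given for members past the threshold in any contrast and for up to 2 others per role with the largest 3 day change, and others were added where a sentence needed them. From the other lists, genes past the threshold are named, or those with the largest 3 day change. The comparison of 3 days with 8 hours was added after the data were seen.

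On simulated data for 6129 genes with 200 changed, log2 changes of 2 were recovered at 85% for 8 hours, 82.5% for 3 days and 80% for 6 days, changes of 1 at 0%. The simulated noise was normal, with no floor and the same response in both genotypes, so these shares may overstate recovery in the real data. There Tk1 (3.26) and Cdk1 (at least 3.39) did not pass at 3 days. Alternatives covered the floor, the filter on dim probe sets, quantile normalization, an intensity trend with a robust prior, the mean over probe sets and the arrays used.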

Additional observations from a re-analysis of the deposited data

Results flagged for a closer look

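At 8 hours 3 members differed from their own control by at least 1.5-fold in opposite directions in the 2 genotypes. Ccnb2 was higher in wild type (0.71 on the log2 scale) and lower in knockout (-1.18). Cdc20 was 0.72 in wild type and -0.91 in knockout, and Stmn1 was 0.81 and -0.94. Each value is 1 array against 1, so the difference between genotypes was not tested. The knockout control, at 908 for Ccnb2, 560 for Cdc20 and 998 for Stmn1, was brighter than the wild type control, at 480, 328 and 468. At 8 hours the order was the other way, with 402, 299 and 522 in knockout and 788, 542 and 819 in wild type. The knockout control held testis germ cell and epididymis transcripts, and the knockout 8 hour array held epididymis and pancreas transcripts. The part of these transcripts in the opposite directions was not tested.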

How the results depend on the processing

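The counts of members called depended on the settings. The number that rose, by limma at an adjusted p under 0.05, was 2 at 8 hours, 6 at 3 days, 3 at 6 days and 12 between 8 hours and 3 days. All 4 counts were 0 without a filter on dim probe sets and 0 with only the 4 arrays compared, which leaves 1 residual degree of freedom. An intensity trend with a robust prior gave 12 at 3 days and 7 at 6 days. A floor at the 25th percentile gave 0 at 6 days and 5 between 8 hours and 3 days, and leaving out both controls gave 0 for the latter. Leaving out 1 array at a time gave 0 to 9, 0 to 28, 0 to 20 and 0 to 21 members in the same order; a lone array left in a group then adds nothing to the spread. No member was called lower in any comparison under these settings. Directions were steadier: of 84 values of the 6 genes called at 3 days, 0 reversed, with log2 changes from 1.84 to 5.16. These genes were picked for being called and the refits share the same arrays, so a reversal could hardly occur. Among all members at 3 days 1 value of 588 reversed: Ccnd2 was 0.24 over all arrays, and -0.46 to 0.94 with 1 array left out, lowest without the knockout control and highest without the wild type control. Without a filter the interaction called 172 genes, of which 0 were members. The interaction could not be fitted without a control array. No paired analysis was possible because the labels carry no replicate numbers and each group is 1 array; genotype already enters the fit. Changes of 1 on the log2 scale were not recovered in simulation (0%), so most changes of that size would be missed, although a few genes with a small spread were called near it.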
